A study of Homo sapiens with 9 samples.

Results

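The genes described here are 59 protein-coding genes of the distal long arm of chromosome 11, out of 60606 genes in the table. They were chosen by name from a stretch of the chromosome that an earlier analysis of the same libraries had found higher in the irradiated lines than in U87, so their differences from U87 are a description and carry no test. Of the 59 genes, 57 had a mean over 1 TPM and were tested between the irradiated lines. TPM (transcripts per 1000000) gives a level per transcript length, as a share of all transcripts in the library. The others, THY1 and SORL1, are only listed.

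RNA was sequenced from 3 lines that share 1 origin, with 3 libraries for each. U87 is an established human glioblastoma line, grown here as wild-type cells in medium with serum. GSCs are radioresistant glioblastoma stem cells derived from U87, taken through repeated cycles of irradiation and grown without serum in medium with B27, EGF and bFGF. Diff cells are radioresistant cells that were differentiated from the GSCs in serum and came from clonal communities. GSCs therefore differ from U87 in irradiation, selection and medium at once. Diff cells differ from U87 in irradiation, selection, passage through the stem cell state and the picking of clonal communities. Within each comparison these cannot be told apart. Diff cells differ from GSCs in differentiation, medium and the picking of clonal communities, which cannot be told apart either. The labels do not say that the libraries of a line came from separate cultures, so the p-values measure only the spread between libraries.

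The distal long arm of chromosome 11 carries genes of many unrelated tasks. Among them are the DNA damage kinase ATM, the Hippo effector YAP1 next to the inhibitor of apoptosis genes BIRC2 and BIRC3, a cluster of matrix metalloproteinases, the histone methyltransferase KMT2A, the ubiquitin ligase CBL and HSPA8, the constitutive HSC70 chaperone and one of the most abundant mRNAs of most cells. Genes that lie next to each other on a chromosome usually work in different pathways and with partners encoded on other chromosomes. For this reason the genes were followed below in 3 ways, by their order on the chromosome, by what their proteins do, and against the partners of their proteins.

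A few facts of the libraries bear on these values. Libraries of 1 line correlated at r = 0.956 to 0.971 over all genes. RN7SL1, an abundant noncoding RNA, accounted for 5.73% to 9.79% of TPM per library, and transcripts of the mitochondrial genome for 25.9% to 31.8%. Replicate 3 of the GSCs stood apart for these genes, with the highest value of its line in 47 of the 57 tested genes (82.5%), against 47.2% of all genes tested. Markers of stem cells and of differentiation did not all follow the labels. SOX2 was at 0.809 to 0.994 TPM in GSCs against at most 0.115 TPM in U87, PROM1, which encodes CD133, at 0.380 to 0.596 TPM against at most 0.238 TPM, and FABP7 at 4.38 to 5.82 TPM against 0.546 to 0.986 TPM. NES, which encodes nestin, was lower in GSCs (21.7 to 23.3 TPM) than in U87 (31.1 to 35.5 TPM). Of the neuronal markers, MAP2 was at 20.6 to 22.5 TPM in Diff cells and 6.93 to 9.19 TPM in U87, whereas TUBB3 did not pass the test in Diff cells against U87 (limma, adjusted p = 0.0622) or against GSCs (adjusted p = 0.516). The astrocyte marker GFAP was highest in U87, at 2.00 to 2.57 TPM, and S100B stayed near or under 1 TPM. Of the markers of other cells, PTPRC of blood cells did not exceed 0.137 TPM and EPCAM of epithelia lay between 0.908 and 1.96 TPM, but PECAM1 of endothelium was at 5.27 to 6.92 TPM in GSCs against 1.88 to 3.75 TPM in U87 and 2.10 to 3.54 TPM in Diff cells, and its part in the results was not tested.

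Most of the 57 genes lay moderately above U87 in both irradiated lines. The median log2 fold change, which is the difference of mean log2(TPM + 1) values, was 0.64 in GSCs (quartiles 0.46 and 0.84) and 0.47 in Diff cells (quartiles 0.27 and 0.60), or 1.55-fold and 1.38-fold. Over all 22909 genes tested the medians were 0.02 and -0.04, and they were -0.03 and 0.00077 with quantile normalization. In both lines 49 of the 57 genes lay above U87, and 26 genes in GSCs and 29 in Diff cells fell in the narrow band between 0.4 and 0.8 on the log2 scale. A log2 fold change of 1 was exceeded by 9 of the 57 genes in GSCs and by 2 in Diff cells. These 2 counts were not compared with those of all genes tested, so they are not called high or low.

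The same can be seen without a model. All GSCs libraries lay above all U87 libraries for 47 genes, and all Diff libraries lay above all U87 libraries also for 47, with 44 genes in both counts. Across all genes tested, 29.3% separated in this way in GSCs, 26.2% in Diff cells and 17.7% in both lines (33.9% in GSCs and 35.2% in Diff cells among protein-coding genes), but the genes were selected on these contrasts and the counts are a description only. Summed over the genes, the level was 1829 to 1849 TPM in U87, 2734 to 3131 TPM in GSCs and 2613 to 2700 TPM in Diff cells. HSPA8 made up much of each sum, and without it the ranges were 873 to 889.9, 1235 to 1484 and 1149 to 1236 TPM. U87 lay below both other lines in each sum, whereas the ranges of GSCs and Diff cells met without HSPA8.

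**Figure D1:**
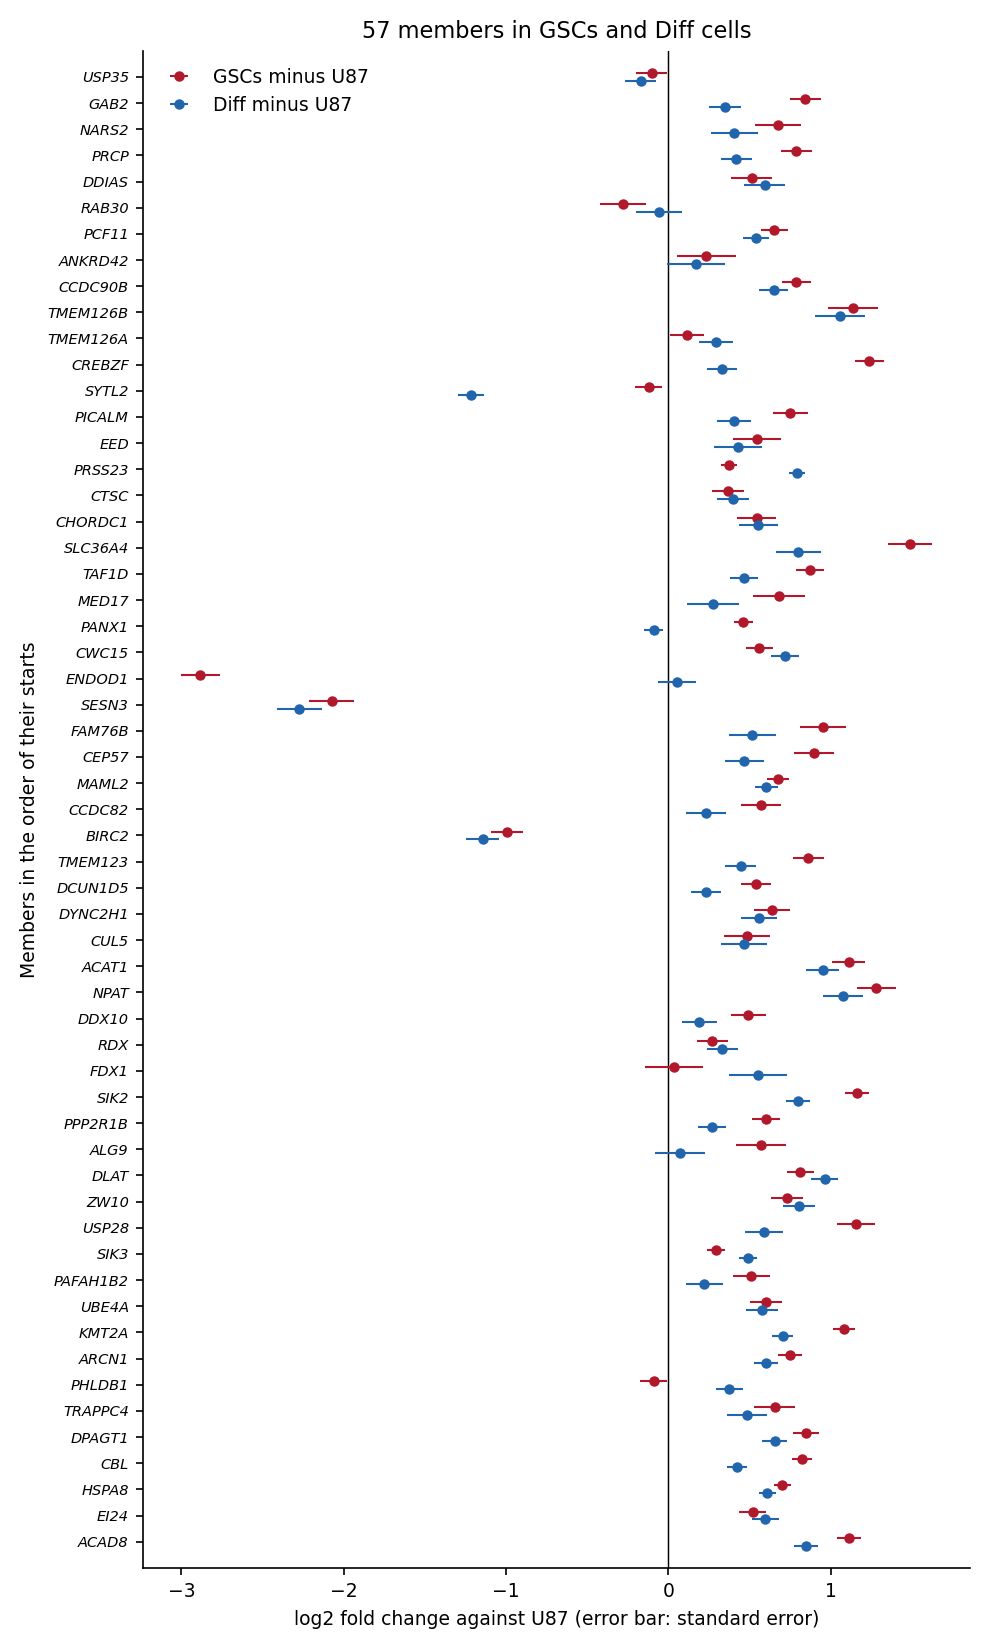
Log2 fold change against U87 of each of the 57 tested genes in GSCs (red) and Diff cells (blue), in the order of the gene starts along chromosome 11, with the standard error of the fit as error bar (n = 3 libraries per line). Most points lie between 0.2 and 1.2, and ENDOD1 (GSCs), SESN3, BIRC2 and SYTL2 (Diff cells) stand far below 0.

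The order of the lines was also much the same from gene to gene. The order from high to low was GSCs, Diff cells, U87 in 37 of the 57 genes (64.9%), an order found in 23.0% of all genes tested. Another 12 genes (21.1%) ran from Diff cells over GSCs to U87, against 12.9% of all genes. Both orders put U87 last, which is what the selection favoured. How highly a gene was expressed made little difference in GSCs, where the median log2 fold change was 0.64 for the 20 genes with a mean of 20 TPM or more and 0.64 for the 37 genes under that level. In Diff cells these medians were 0.59 and 0.43. The 1 added to each TPM compresses the changes of genes with few TPM, so the 2 groups are not on an equal scale.

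The shift was not limited to the chosen genes. They span 56.1 Mb, from the start of USP35 at chr11:78188812 to that of ACAD8 at chr11:134253495 (GRCh38, gene bounds of GENCODE 29). Another 271 tested genes start in the same stretch, and their median log2 fold change was 0.60 in GSCs, with 224 genes above 0, and 0.53 in Diff cells, with 222 above 0. The 524 tested protein-coding genes of chromosome 11 that start before the stretch had medians of -0.07 and -0.04. Because the stretch itself was found on these contrasts, none of these values is a test.

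Per library the difference was of similar size. The median shift of the 57 genes from the U87 mean was 0.65, 0.52 and 0.79 in GSCs replicates 1 to 3 and 0.51, 0.44 and 0.46 in the Diff replicates, while the U87 libraries ranged from -0.03 to 0.02. The other genes of the stretch shifted by 0.60, 0.62 and 0.74 in GSCs and by 0.58, 0.43 and 0.54 in Diff cells. Every irradiated library thus lay above every U87 library in both gene groups. Over all genes tested the 9 libraries ranged only from -0.07 to 0.07, with GSCs replicate 3 at the top. Without GSCs replicate 3 the median of the 57 genes in GSCs was 0.56.

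To follow the values along the chromosome, protein-coding genes were taken in consecutive windows of 15 genes. The stretch was found on these contrasts and the windows inside it hold the chosen genes. A difference between windows inside and before it is therefore a description and no test. The 34 windows before the stretch had medians from -0.57 to 0.25 in GSCs and from -0.51 to 0.39 in Diff cells, with 15 windows above 0 in each line. The window across the edge, from EMSY to USP35, had medians of -0.10 in GSCs and -0.04 in Diff cells. All 13 windows inside had positive medians, from 0.48 to 1.16 in GSCs and from 0.32 to 0.95 in Diff cells. The highest window in both lines ran from CASP1 to NPAT. Just before the stretch, INTS4, a subunit of the Integrator complex, differed from U87 by -0.01 in GSCs and -0.04 in Diff cells, the respiratory complex I subunit NDUFC2 by -0.18 and 0.01, and the glucosyltransferase ALG8 by -0.22 and 0.07.

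The first genes inside did not all follow. USP35, a deubiquitinase and the first of the 57 genes, had 7.05, 8.29 and 7.64 TPM in U87, 6.86, 7.30 and 7.001 TPM in GSCs and 6.28, 6.50 and 7.31 TPM in Diff cells, so that all 3 lines overlapped. Its neighbour KCTD21, which is not among the 57 genes, lay below U87 by 0.75 in GSCs and 0.39 in Diff cells. GAB2, a docking adaptor of receptor tyrosine kinase signaling and the next gene in order, had 4.39, 3.87 and 4.41 TPM in U87, 8.57, 8.49 and 8.03 TPM in GSCs and 5.25, 5.54 and 6.17 TPM in Diff cells. From GAB2 on, values above U87 were the rule. The last gene, ACAD8, lay above U87 by 1.11 in GSCs and 0.85 in Diff cells, and no protein-coding gene beyond it passed the filter.

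Some of the genes share a start region with a neighbour that is read in the opposite direction. By RefSeq starts, available for 55 of the 57 genes, 9 pairs of tested protein-coding genes began within 1000 bases of each other in opposite directions, at distances of 92 to 429 bases, and they held 11 of the genes. Both genes of the pair lay above U87 in 8 of the 9 pairs in GSCs and in 7 in Diff cells. Taken singly, 87.7% of the 57 genes and 84.3% of the other protein-coding genes of the stretch lay above U87 in GSCs. In Diff cells these shares were 89.5% and 85.0%. Whether pairs were more alike than other neighbours of the stretch was not tested. Within a pair the 2 log2 fold changes differed by a median of 0.38 in GSCs and 0.21 in Diff cells. NPAT, a coactivator of histone gene transcription, and ATM start 429 bases apart, and the values were 1.28 and 1.46 in GSCs and 1.07 and 0.95 in Diff cells. ATM, which is not among the 57 genes, had 5.79, 5.37 and 5.27 TPM in U87, 16.6, 14.99 and 19.2 TPM in GSCs and 12.2, 11.1 and 11.2 TPM in Diff cells. The exception in both lines was USP35 and KCTD21.

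In 2 pairs both genes were among the 57. PRCP, a lysosomal carboxypeptidase, and DDIAS, a suppressor of apoptosis after DNA damage, start 92 bases apart, with log2 fold changes of 0.79 and 0.51 in GSCs and of 0.42 and 0.59 in Diff cells. FAM76B and CEP57, the latter a centrosome protein, start 232 bases apart, with 0.95 and 0.89 in GSCs and 0.52 and 0.47 in Diff cells. The windows printed below are those of RefSeq (GRCh38.p14), 250 bases before to 50 bases after the start of the named gene and read along its strand, so that the start is base 251. They are shown because they are the start regions shared by 2 of the genes, with that of NPAT as the gene that lay highest above U87 in Diff cells. Capitals mark matches to the letters searched for, CCAAT and CCGGAAG with their reverse complements ATTGG and CTTCCGG.
DDIAS, chr11:82901486-82901785, plus strand, PRCP starting at base 159 on the other strand: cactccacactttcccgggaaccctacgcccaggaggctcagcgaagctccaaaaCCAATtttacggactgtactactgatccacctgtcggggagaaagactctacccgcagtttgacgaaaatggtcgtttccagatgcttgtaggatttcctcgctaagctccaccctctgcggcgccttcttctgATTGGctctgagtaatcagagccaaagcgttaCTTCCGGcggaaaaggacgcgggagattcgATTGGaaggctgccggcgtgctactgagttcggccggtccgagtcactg
CEP57, chr11:95789764-95790063, plus strand, FAM76B starting at base 19 on the other strand: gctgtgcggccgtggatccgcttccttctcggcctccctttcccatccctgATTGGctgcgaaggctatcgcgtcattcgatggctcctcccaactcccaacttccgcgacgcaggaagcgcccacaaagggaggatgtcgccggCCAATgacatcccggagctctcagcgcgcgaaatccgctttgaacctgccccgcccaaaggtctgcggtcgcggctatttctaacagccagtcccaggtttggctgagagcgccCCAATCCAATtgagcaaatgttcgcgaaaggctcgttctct
NPAT, chr11:108222589-108222888, minus strand, the start of ATM lying outside: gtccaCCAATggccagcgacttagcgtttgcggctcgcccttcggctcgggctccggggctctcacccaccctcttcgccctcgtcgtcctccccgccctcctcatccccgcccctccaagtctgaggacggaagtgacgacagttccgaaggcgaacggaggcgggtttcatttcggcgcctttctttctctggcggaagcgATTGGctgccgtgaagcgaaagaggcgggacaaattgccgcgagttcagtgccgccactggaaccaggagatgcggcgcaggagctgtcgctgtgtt

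Short motifs were searched for on both strands of these windows and counted beside those of other genes. CCAAT, the core bound by NF-Y, was in 19 of the 55 windows (34.5%), against 37.0% of the windows of all tested protein-coding genes and 35.7% of all RefSeq windows. CCGGAAG, a core of ETS factors, was in 18 (32.7%), against 19.0% and 10.7%. TATAAA was in 2 windows (3.64%, against 6.20% and 11.95%), GCATGCGC, a stretch of NRF1 sites, in 5 (9.09%, against 5.55% and 3.27%), the cyclic AMP response element TGACGTCA in 2 (3.64%, against 3.28% and 1.98%) and the heat shock element core GAANNTTC in 5 (9.09%, against 4.64% and 6.87%). HSPA8 and CHORDC1 were among the last 5. The median GC content was 61.3% in the windows of the 55 genes and 65.0% in those of the tested protein-coding genes. These are matches of letters only, and no test was made of them.

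By role, every tested gene of the nuclear, mitochondrial, chaperone, endoplasmic reticulum and centrosome groups lay above U87 in both lines. All 12 genes of transcription, RNA processing and chromatin lay above U87 in both lines, with medians of 0.68 in GSCs and 0.49 in Diff cells. CREBZF, a bZIP transcription factor, had 11.3, 11.6 and 12.5 TPM in U87, 27.2, 27.3 and 33.3 TPM in GSCs and 14.9, 15.8 and 14.4 TPM in Diff cells. KMT2A had 11.96, 11.1 and 10.98 TPM in U87, 23.9, 24.9 and 26.4 TPM in GSCs and 19.4, 18.3 and 19.5 TPM in Diff cells. For both genes the 3 lines were fully separated, in the order GSCs, Diff cells and U87. NPAT had 8.36, 9.84 and 8.26 TPM in U87, 21.1, 20.7 and 27.0 TPM in GSCs and 21.9, 18.4 and 18.8 TPM in Diff cells, where the irradiated lines overlapped. CWC15, a component of the spliceosome, had 17.7, 17.6 and 16.8 TPM in U87, 22.7, 27.6 and 28.2 TPM in GSCs and 28.7, 28.5 and 30.3 TPM in Diff cells, and the difference between the irradiated lines did not pass the test (adjusted p = 0.192). MAML2, a coactivator of Notch, and PCF11, which acts in the cleavage of pre-mRNA ends, lay above U87 by 0.67 and 0.65 in GSCs and by 0.60 and 0.54 in Diff cells. The remaining 6 genes, which include EED of Polycomb repressive complex 2, the Mediator subunit MED17, TAF1D of the RNA polymerase I factor SL1 and the RNA helicase DDX10, had means of 1.61 to 15.6 TPM and log2 fold changes of 0.49 to 0.95 in GSCs and 0.19 to 0.52 in Diff cells.

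Mitochondrial proteins formed the group with the highest medians, at 0.80 in GSCs and 0.75 in Diff cells, and all 8 genes lay above 0 in both lines. TMEM126B, an assembly factor of respiratory complex I, had 15.9, 18.7 and 15.8 TPM in U87, 34.8, 32.0 and 49.3 TPM in GSCs and 39.8, 33.0 and 35.3 TPM in Diff cells. DLAT, the acetyltransferase of the pyruvate dehydrogenase complex, had 12.1, 12.3 and 13.2 TPM in U87, 21.0, 21.8 and 25.7 TPM in GSCs and 26.0, 24.3 and 25.8 TPM in Diff cells. Neither gene overlapped with U87. TMEM126A, the paralog that lies beside TMEM126B, was at 27.5, 27.9 and 24.3 TPM in U87, 32.0, 25.7 and 28.8 TPM in GSCs and 36.7, 29.7 and 32.1 TPM in Diff cells, so that GSCs and U87 overlapped. ACAD8, an acyl-CoA dehydrogenase of valine breakdown, and ACAT1, the mitochondrial acetoacetyl-CoA thiolase, each lay above U87 by 1.11 in GSCs and by 0.85 and 0.95 in Diff cells. FDX1, a mitochondrial ferredoxin, had 7.67, 5.03 and 8.58 TPM in GSCs, which spanned the U87 values of 6.38, 6.70 and 7.17 TPM, and 8.83, 10.3 and 12.1 TPM in Diff cells. It has 2 named pseudogenes, which could take some of its reads, with a summed mean of 3.48 TPM against 8.08 TPM for FDX1.

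Of the chaperones, HSPA8 had the highest level of all 57 genes. It was at 959, 968 and 956 TPM in U87, 1543, 1499 and 1648 TPM in GSCs and 1446, 1464 and 1487 TPM in Diff cells. Its log2 fold changes were 0.70 ± 0.052 (SE) for GSCs and 0.61 ± 0.052 for Diff cells. HSPA8 has 17 named pseudogenes in the table, which could take some of its reads; 4 of them passed the filter, and all 17 together reached a mean of 21.3 TPM. CHORDC1, a cochaperone of HSP90, had 6.14, 6.17 and 6.05 TPM in U87, 9.01, 8.08 and 11.3 TPM in GSCs and 10.1, 8.71 and 9.63 TPM in Diff cells. CHORDC1 has 4 named pseudogenes with a summed mean of 4.05 TPM, against a mean of 8.35 TPM for the gene. How many of its reads they took is not known. For both chaperones U87 lay below the other lines without overlap.

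Among the ubiquitin and NEDD8 enzymes 5 of 7 genes lay above U87 in each line. CBL, a ubiquitin ligase that ends the signaling of receptor tyrosine kinases, had 37.0, 38.4 and 38.8 TPM in U87, 67.9, 64.4 and 72.3 TPM in GSCs and 52.8, 48.7 and 52.5 TPM in Diff cells, with no overlap between the lines. UBE4A, a ubiquitin chain elongation factor, lay above U87 by 0.60 in GSCs and 0.58 in Diff cells, and 29.9% of its exon bases are also covered by an exon of the opposite strand. BIRC2, the ubiquitin ligase cIAP1 that restrains noncanonical NF-κB signaling, went the other way, with 49.5, 49.0 and 58.3 TPM in U87, 27.5, 22.2 and 27.6 TPM in GSCs and 23.1, 22.4 and 23.6 TPM in Diff cells. Its neighbour BIRC3 stayed under 1 TPM in all lines, whereas YAP1, beyond BIRC3 on the same side, lay above U87 by 0.80 in GSCs and 0.22 in Diff cells. USP28, a deubiquitinase of the DNA damage response, was above U87 by 1.15 and 0.59.

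In the signaling group 4 of 5 genes lay above U87 in each line. SIK2, a salt-inducible kinase, had 13.6, 12.5 and 12.6 TPM in U87, 28.0, 31.3 and 31.3 TPM in GSCs and 24.6, 22.5 and 22.6 TPM in Diff cells. Its relative SIK3 had 18.4, 17.8 and 17.3 TPM in U87, 22.1, 22.6 and 21.5 TPM in GSCs and 26.4, 25.1 and 24.995 TPM in Diff cells. Both kinases were lowest in U87, but SIK2 was highest in GSCs and SIK3 in Diff cells. PPP2R1B, a scaffold subunit of protein phosphatase 2A, lay above U87 by 0.60 in GSCs and 0.27 in Diff cells. The exception was SESN3, a sestrin that restrains mTORC1 and a known FOXO target, with 5.11, 5.002 and 4.30 TPM in U87, 0.371, 0.334 and 0.425 TPM in GSCs and 0.143, 0.194 and 0.261 TPM in Diff cells. Its log2 fold changes of -2.07 and -2.27 are compressed by the 1 added to each TPM.

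Membrane traffic and lysosome genes lay above U87 in 6 of 8 cases in each line. ARCN1, the delta subunit of the COPI coat, had 101, 95.0 and 102 TPM in U87, 175, 149 and 179.6 TPM in GSCs and 155, 144 and 154 TPM in Diff cells. PICALM, an adaptor of clathrin coats, had 43.8, 40.1 and 42.8 TPM in U87, 67.4, 64.5 and 85.1 TPM in GSCs and 59.9, 51.6 and 57.3 TPM in Diff cells. In both genes U87 was the lowest line without overlap, as it was in PAFAH1B2, PRCP, TRAPPC4 and the lysosomal protease CTSC. SYTL2, a Rab effector in vesicle docking, was at 19.7, 20.4 and 18.9 TPM in U87, 19.0, 17.4 and 17.5 TPM in GSCs and 8.76, 7.40 and 7.57 TPM in Diff cells. The Golgi GTPase RAB30 was under 3 TPM in every library and lay below U87 in GSCs without overlap. SORL1, a sorting receptor, did not exceed 0.137 TPM.

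All 3 genes of the endoplasmic reticulum lay above U87 in both lines. EI24, a membrane protein of the endoplasmic reticulum, had 53.5, 56.3 and 51.0 TPM in U87, 70.5, 74.8 and 87.2 TPM in GSCs and 84.8, 77.6 and 82.6 TPM in Diff cells. DPAGT1, which starts the lipid-linked precursor of N-glycans, had 10.4, 10.9 and 9.65 TPM in U87, 20.9, 18.7 and 18.4 TPM in GSCs and 16.2, 16.6 and 17.5 TPM in Diff cells. Exons of the opposite strand cover 21.3% of its exon bases. ALG9, a mannosyltransferase of the same pathway, was at 3.81, 3.93 and 3.76 TPM in Diff cells, within the U87 values of 4.49, 3.39 and 3.03 TPM, and at 6.03, 4.78 and 6.83 TPM in GSCs. An unnamed gene of the same strand covers 24.4% of the exon bases of ALG9.

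At the cell surface and cortex the changes were more varied, with 5 of 6 genes above U87 in each line. TMEM123, a surface glycoprotein, had 42.4, 42.6 and 40.3 TPM in U87, 74.2, 68.9 and 88.3 TPM in GSCs and 62.5, 54.7 and 54.8 TPM in Diff cells. SLC36A4, an amino acid transporter, had the largest positive change of the 57 genes in GSCs (1.49 ± 0.14), from 7.32, 7.44 and 6.64 TPM in U87 to 20.1, 18.6 and 27.6 TPM, with 13.6, 12.3 and 13.6 TPM in Diff cells. PANX1, a membrane channel that releases ATP, lay above U87 in GSCs alone, with 61.9, 61.5 and 66.5 TPM against 48.8, 43.9 and 44.4 TPM in U87 and 43.1, 43.0 and 42.3 TPM in Diff cells. The reverse was seen in PHLDB1, a protein of the cell cortex, with 7.02, 6.98 and 7.09 TPM in Diff cells against 4.80, 4.99 and 4.67 TPM in GSCs and 5.11, 5.16 and 5.32 TPM in U87. PRSS23, a secreted serine protease, was ordered in steps, from 30.5, 29.2 and 29.96 TPM in U87 over 39.2, 38.9 and 38.6 TPM in GSCs to 50.3, 53.0 and 53.9 TPM in Diff cells. THY1, the surface glycoprotein CD90, was listed at 0 in all U87 libraries and at no more than 0.0758 TPM elsewhere.

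The 3 genes of the centrosome, kinetochore and cilium lay above U87 in both lines. ZW10, which acts in the spindle checkpoint at kinetochores, had 15.005, 16.5 and 15.8 TPM in U87, 25.8, 24.2 and 30.9 TPM in GSCs and 27.5, 26.7 and 30.8 TPM in Diff cells. CEP57 had 8.24, 8.43 and 7.40 TPM in U87, 14.5, 14.1 and 19.2 TPM in GSCs and 12.3, 11.3 and 10.8 TPM in Diff cells. DYNC2H1, the heavy chain of the dynein of cilia, lay above U87 by 0.64 and 0.56. Of the remaining genes, DDIAS was above U87 by 0.51 and 0.59 and ANKRD42 by 0.23 and 0.17, the latter with overlapping libraries. ENDOD1, which carries an endonuclease domain, was the gene that lay furthest below U87 in GSCs, with 20.2, 20.8 and 18.6 TPM in U87, 1.87, 1.49 and 2.15 TPM in GSCs and 22.2, 17.9 and 21.99 TPM in Diff cells. Its Diff and U87 libraries overlapped.

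**Figure D2:**
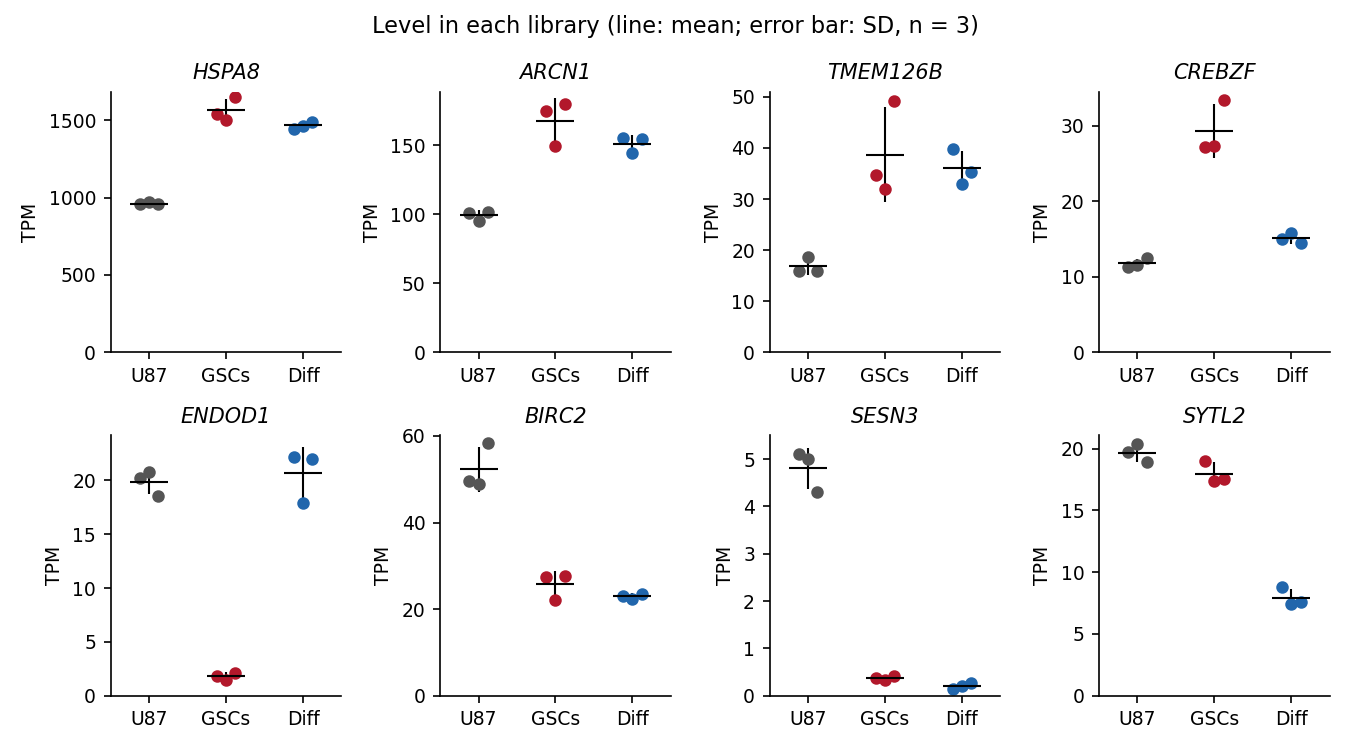
TPM of 8 of the genes in each library, with the mean and SD of the 3 libraries of a line; each axis starts at 0. HSPA8, ARCN1, TMEM126B and CREBZF are lowest in U87, whereas ENDOD1 is low only in GSCs, BIRC2 and SESN3 are highest in U87 and SYTL2 is low only in Diff cells.

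The irradiated lines were compared with each other to ask which of the genes differed between GSCs and the cells differentiated from them, in another medium and from picked communities. This contrast was not the one used for selection but it shares the same libraries, so a gene chosen for a high value in GSCs is more likely to lie lower in Diff cells. With limma and an adjusted p under 0.05 (Benjamini-Hochberg over all genes tested), 19 of 57 were lower in Diff cells (33.3%) and 4 were higher (7.02%), or 13 and 5 with quantile normalization. Over all genes tested 19.8% were lower and 15.0% higher, and over the 12380 protein-coding ones 22.1% and 22.6%. Of the other 271 genes of the stretch, 68 were lower (25.1%) and 25 higher (9.23%), and of the 140 protein-coding ones among them 42 were lower and 17 higher. The median log2 fold change from GSCs to Diff cells was -0.16 in the 57 genes, of which 42 lay below 0, -0.10 in the other genes of the stretch, -0.06 in all genes tested and -0.0040 in the protein-coding ones.

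The changes between these lines were small for nearly all genes. Requiring in addition a log2 fold change over 1 left 1 gene lower and 1 higher, against 5.36% and 2.66% of all genes tested. ENDOD1 was the one that was higher, by 2.94 ± 0.12 (adjusted p = 1.34e-06), and SYTL2 the one that was lower, with a change of -1.09 ± 0.081 (adjusted p = 2.37e-05). The Diff and GSCs libraries of both genes did not overlap.

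Next in size among the lower genes were CREBZF, with a change of -0.91 (adjusted p = 0.00013), SLC36A4 with -0.69 (adjusted p = 0.00479), USP28 with -0.57 (adjusted p = 0.00572), PANX1 with -0.55 (adjusted p = 0.000161), ALG9 with -0.50 (adjusted p = 0.0358) and GAB2 with -0.50 (adjusted p = 0.00462). The other 12, among them TMEM123, CBL, KMT2A, TAF1D and SIK2, changed by -0.44 to -0.26. The higher genes besides ENDOD1 were PHLDB1 at 0.46 (adjusted p = 0.003), PRSS23 at 0.42 (adjusted p = 0.000303) and SIK3 at 0.20 (adjusted p = 0.0245). By role, the genes that were lower were 4 of the 12 nuclear genes, 3 of the 8 of membrane traffic, 3 of the 7 ubiquitin and NEDD8 enzymes, 3 of the 6 of the cell surface and 3 of the 5 signaling genes, with 1 each in the mitochondrial, endoplasmic reticulum and centrosome groups and none among the chaperones or the remaining genes. The groups are small and were not tested against each other.

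Requiring the fold change left 2 of the 23 genes called. At an adjusted p under 0.05 alone, 14 kept their call under every other filter, scaling, fit and left-out library in which they were tested, and 9 lost it under at least 1. The 9 were ACAD8, ALG9, CEP57, DCUN1D5, FAM76B, PICALM, PPP2R1B, PRCP and SIK3, all with changes of 0.50 or less in size. Single libraries mattered to the counts. Leaving out GSCs replicate 3 raised the number of higher genes from 4 to 7, with 16 lower, and leaving out Diff replicate 3 reduced the lower genes from 19 to 12.

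The partners of the proteins gave a comparison at the level of complexes. For 20 of the genes, 94 genes for subunits of the same complex, or for proteins of the same or the next step, were listed from general knowledge, and 87 of them lie on other chromosomes and were tested. In GSCs 11 of the 87 partners were higher than in U87 (12.6%) and 28 were lower (32.2%), against 25.3% and 23.3% of all genes tested and 29.9% and 30.3% of the protein-coding ones. In Diff cells 10 were higher than in U87 (11.5%) and 19 lower (21.8%), against 18.9% and 20.5% of all genes and 25.7% and 24.5% of the protein-coding ones. The share of lower partners was close to that of protein-coding genes in both lines, and the share of higher partners was below it. The median log2 fold change of the partners was -0.10 in GSCs and -0.06 in Diff cells. From GSCs to Diff cells 24 partners were higher (27.6%) and 8 lower (9.20%), against 22.6% and 22.1% of protein-coding genes, with a median of 0.08. The 19 in Diff cells was the least steady of these counts, falling to 6 without U87 replicate 1, 8 without U87 replicate 2, 11 without U87 replicate 3 and to 10, 7 and 9 without Diff replicates 1, 2 and 3. Without GSCs replicate 3 the count of partners higher in Diff cells was 16 in place of 10.

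Set beside its own partners, the gene on chromosome 11 lay above the median of the partners in 18 of 19 complexes or steps, in both GSCs and Diff cells. The median of the 19 differences was 0.79 in GSCs and 0.47 in Diff cells. The height of the genes themselves follows from their selection. Partners were only required to lie off chromosome 11. Whether some lie in shifted stretches of their own chromosomes was not tested here. This holds also for partners named below, such as DLD on chromosome 7 and PPP2CB on chromosome 8.

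COPI and Mediator are examples with many subunits. ARCN1 was above U87 by 0.75 in GSCs, while the 6 COPI subunits on other chromosomes ranged from -0.29 to 0.25 and COPB1, on the short arm of chromosome 11, was at 0.39. MED17 was above U87 by 0.68, while 17 Mediator subunits on other chromosomes ranged from -0.78 for MED20 to 0.21 for MED10. In the pyruvate dehydrogenase complex, with DLAT at 0.96 in Diff cells, 2 of 4 partners were higher there too, PDHA1 at 0.54 (adjusted p = 0.000594) and DLD at 0.53 (adjusted p = 0.00127). PDHB, at 0.24 (adjusted p = 0.139), and PDHX, on chromosome 11 before the stretch, at -0.06 (adjusted p = 0.615), did not pass. In Polycomb repressive complex 2, RBBP4 exceeded EED in GSCs (0.75 against 0.55), and in TRAPP, which tethers vesicles, TRAPPC6A exceeded TRAPPC4 (0.96 against 0.65).

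Of the 3 partners of PPP2R1B in protein phosphatase 2A, 1 changed in GSCs. PPP2R1B lay above U87 by 0.60, and the catalytic subunit PPP2CB was lower (-1.37, adjusted p = 2.05e-06), with 38.0 TPM in U87, 14.1 TPM in GSCs and 12.9 TPM in Diff cells as means. The other scaffold PPP2R1A, at -0.08 (adjusted p = 0.508), and the other catalytic subunit PPP2CA, at 0.06 (adjusted p = 0.772), did not pass. Around PICALM, the adaptor subunit AP2M1 fell from a mean of 363 TPM in U87 to 175 TPM in GSCs (adjusted p = 4.34e-07) and stood at 301 TPM in Diff cells. AP2S1 (-0.64) and AP2A1 (-0.50) were lower in GSCs as well, and AP2B1 and the clathrin chains CLTC and CLTA did not pass the test. The complex in which the gene of chromosome 11 was not the higher one was that of BIRC2 with TRAF2 and TRAF3, where the log2 fold changes in GSCs were -0.995 for BIRC2, -0.81 for TRAF3 (adjusted p = 8.80e-06) and 0.09 for TRAF2.

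Outside the 57 genes, some protein-coding genes of the stretch lay much further above U87. The highest in GSCs were MMP3 (5.81), MMP1 (3.56), VWA5A (2.90), SC5D (2.78), an enzyme of cholesterol synthesis, and the inflammatory caspase CASP4 (2.41), and the highest in Diff cells were MMP3 (5.24) and GUCY1A2 (3.55), a subunit of soluble guanylate cyclase. MMP3, the metalloproteinase stromelysin, had 10.5, 7.39 and 8.47 TPM in U87, 582, 477 and 582 TPM in GSCs and 402, 369 and 329 TPM in Diff cells. MMP1, interstitial collagenase, had means of 1.85, 32.2 and 3.05 TPM. Diff cells lay nearer to U87 than to GSCs, with a log2 fold change against U87 of 0.54 ± 0.23 (SE). Every Diff library was above every U87 library, but narrowly, with the lowest Diff value at 2.69 TPM and the highest U87 value at 2.65 TPM. Of genes listed for their known roles, CADM1, an adhesion molecule, went from a mean of 0.227 TPM in U87 to 1.66 TPM in GSCs and 2.40 TPM in Diff cells, and the checkpoint kinase CHEK1 had means of 9.39, 20.5 and 14.04 TPM. Furthest below U87 among the protein-coding genes outside the 57 was C11orf87, at -2.06 in GSCs and -1.77 in Diff cells. H2AX, the histone variant phosphorylated at DNA breaks, differed from U87 by -0.35 in GSCs, with overlapping libraries, and by 0.39 in Diff cells. RELA, the NF-κB subunit that lies on chromosome 11 before the stretch, was at -0.22 and -0.30.

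In all, 8 of the 57 genes had a mean log2 level below U87 in at least 1 line, and 5 of them in both. The 8 were USP35, RAB30, SYTL2, PANX1, ENDOD1, SESN3, BIRC2 and PHLDB1. Only SESN3 and BIRC2 lay below U87 in both lines without overlap of the libraries. The libraries of USP35 overlapped with U87 in both lines, those of RAB30 in Diff cells and those of SYTL2 in GSCs. All but PHLDB1, which starts 40.4 Mb from USP35, lie in the first 24.2 Mb of the 56.1 Mb, and each has close neighbours above U87. ENDOD1 and SESN3 are next to each other in the order of the 57 genes, between CWC15, at 0.56 in GSCs and 0.72 in Diff cells, and FAM76B, at 0.95 and 0.52. SYTL2 lies between CREBZF and PICALM, which were above U87 in both lines.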

How the data were processed

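RNA-seq of 9 libraries (U87, GSCs and Diff cells, 3 each) was analysed. The authors deposited 1 table of log2(TPM + 1) values for 60606 genes; the submitters' processing notes name FastQC 0.11.9, Trimmomatic 0.39, HISAT2 2.2.1, featureCounts 2.0.5, R 4.2.0 and GRCh38, and the annotation and the strand setting of the counting are not given in the sources used here. Counts of genes that overlap on opposite strands may therefore mix. The labels describe ribosomal RNA removal and directional libraries, and the methods of the study oligo(dT) enrichment. TPM keeps no depth, so the precision rests on the spread between libraries. The fit pools this spread over the lines, so a gene has the same standard error in each comparison. The spread was not equal. The median coefficient of variation of the 57 genes was 5.55% in U87, 12.0% in GSCs and 5.12% in Diff cells.

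Genes with a mean over 1 TPM (22909) were fitted with limma 3.58.1 (trend) in R 4.3.3, in 1 model of all libraries without covariates, with Benjamini-Hochberg adjustment within each comparison and calls at an adjusted p under 0.05. The edgeR and DESeq2 tests planned for counts were not run because the table holds none. The fit was tested on simulated data. Symbols were placed with GENCODE 29 (57002 of 60606), start windows came from RefSeq GRCh38.p14, and Python 3.11.15 with pandas 2.3.3, numpy 2.4.6 and matplotlib 3.10.9 made tables and figures.

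The genes, role groups, partners and letters searched for were chosen with earlier results of these data known. Library values were to be given for the 2 to 4 most abundant genes of each role and those with the largest and smallest changes; outside the 57 genes, partners, edge genes, close opposite neighbours, up to 5 extremes per comparison and a few listed genes could be named. Alternatives covered pseudocount, filter, scaling, libraries in the fit, variance trend, fold threshold, the replicate block and each library left out.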

Additional observations from a re-analysis of the deposited data

Results flagged for a closer look

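For 2 genes the change against U87 differed between GSCs and Diff cells by a tested log2 difference past 1. ENDOD1 was below U87 in GSCs (-2.88) and level with it in Diff cells (0.05), a difference of 2.94 (limma, adjusted p = 1.34e-06, all 3 Diff libraries above all 3 GSCs libraries). SYTL2 was near U87 in GSCs (-0.12) and below it in Diff cells (-1.22), a difference of -1.09 (adjusted p = 2.37e-05, all 3 Diff libraries below all 3 GSCs libraries). Both contrasts use the same U87 libraries, so the difference is that between Diff cells and GSCs. Both genes kept an adjusted p under 0.05 under every setting tried, with changes of 2.85 to 3.43 for ENDOD1 and of -1.18 to -0.99 for SYTL2.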

How the results depend on the processing

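None of the medians of the 57 genes, the stretch and the partners changed direction under the settings tried, whereas those over all genes tested did. The latter were -0.03, 0.00077 and 0.02 with quantile normalization for GSCs against U87, Diff against U87 and Diff against GSCs. The counts of calls kept their direction too, except for the partners in Diff against U87. Without U87 replicate 1, only 6 of these were called lower. No fit with a library left out called fewer than 8 of them higher. The medians of the 57 genes moved by less than the larger SD between libraries of the lines compared, except that Diff against U87 was 0.52 with RN7SL1 and mitochondrial transcripts left out of the TPM total and 0.51 with a pseudocount of 0.1, and with single libraries left out they ranged from 0.56 to 0.69 (GSCs against U87), 0.44 to 0.49 (Diff against U87) and -0.23 to -0.10 (Diff against GSCs). For the other genes of the stretch these ranges were 0.57 to 0.63, 0.47 to 0.54 and -0.16 to -0.07. Their median in GSCs against U87 was 0.80 with a mean over 5 TPM, 0.15 with no filter and 0.82 with a pseudocount of 0.1, and in Diff against U87 0.65, 0.10 and 0.66 in the same order and 0.61 with that TPM total. In Diff against GSCs it was -0.013 after quantile normalization. The cause of these moves was not tested, other than that no filter adds genes near 0 TPM.

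Requiring a log2 fold change over 1 left 1 gene higher and 1 lower between Diff cells and GSCs, and of the partners 0 higher and 2 lower in GSCs and 0 higher and 1 lower in Diff cells. With single libraries left out, the calls of the 57 genes ranged from 3 to 7 higher and from 12 to 20 lower, and the partners from 9 to 13 higher and 21 to 36 lower in GSCs, and from 8 to 16 higher and 6 to 23 lower in Diff cells. Partners higher in Diff cells numbered 16 with only the groups compared in the fit. Partners lower in Diff cells numbered 9 with that TPM total, 11 without a variance trend and 11 with no filter.

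The replicate numbers did not pair the libraries, since same-numbered libraries of different lines had correlated deviations of only -0.04 to 0.05. With the replicate block, 9 partners in place of 19 were called lower in Diff cells, and the other counts stayed within 1.5 times. The table keeps no depth, so values under 1 TPM have no detection limit here.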
